A study of Homo sapiens with 9 samples.

Results

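The replication-dependent histone genes encode the core histones H2A, H2B, H3 and H4 and the linker histone H1 that package newly copied DNA. They were taken from the deposited gene table as the protein-coding genes whose symbols follow the histone naming scheme for this family, H1-1 to H1-5 and the numbered H2AC, H2BC, H3C and H4C genes. The naming rule matched 57 of the 37351 genes, and 42 of these had at least 10 counts in at least 3 of the 9 libraries. The 42 genes comprised 4 H1, 11 H2A, 12 H2B, 6 H3 and 9 H4 genes, 34 on chromosome 6 and 8 on chromosome 1. Of the 15 that did not pass, 13 never reached 10 counts. H2AC19 and H4C15 were just inside the limit, each with 3 libraries at 10 counts or more and a highest count of 51 and 16. H2AC21 and H2AC12 were just outside, each with 1 such library and a highest count of 11 and 14.

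Most mRNAs end in a poly(A) tail, but the mRNAs of these histone genes end a few bases after a short stem-loop, which the stem-loop binding protein SLBP holds. The messages accumulate in S phase and are destroyed when DNA synthesis stops. Some of the genes also make longer, polyadenylated transcripts that run past the stem-loop, and such forms are known in cells that have left the cycle or are differentiating.

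The cells were LNCaP, an androgen-responsive line from a metastatic prostate carcinoma, in which recombinant neuregulin 1 (NRG1), a ligand of the receptor HER3, was given for 0, 12 or 24 h. Each time had 3 libraries, titled as biological replicates. The protocol plates cells in triplicate wells and starves them without serum or calcium for 6 to 12 h before NRG1 at 15 ng/mL, and p-values measure the spread between these samples, which may be technical. All 3 groups carry the NRG1 treatment label, and no library here was kept in the starvation medium for 12 or 24 h without NRG1, so an effect of NRG1 and an effect of time in that medium cannot be told apart.

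The libraries held about 47016300 to 60985800 counts, with the 0 h libraries deepest, and 5.02% to 6.09% of counts were mitochondrial. The histone genes together drew 24024 to 33046 counts per library. All 9 luminal prostate markers were tested and summed to 4379 to 4822 CPM (counts scaled to a common library total) in each library, with KLK3 (prostate-specific antigen) at 994 CPM at 0 h. Single luminal markers moved under this steady sum: 3 were higher and 4 lower at 12 h, and 2 higher and 6 lower at 24 h (edgeR), with KLK3 among the higher (log2 0.42 and 0.25). The lowest log2 changes of the 9 were −0.80 at 12 h and −1.41 at 24 h. Of all tested genes, 10.6% were higher and 8.16% lower at 12 h, and 11.6% and 9.48% at 24 h. The basal keratin KRT5, the fibroblast collagen COL1A2 and the leukocyte antigen PTPRC each averaged at most 0.0378 CPM at any time. The 3 basal and the 3 immune markers summed to at most 0.325 and 0.296 CPM in any library. COL1A1, which fibroblasts also make, was at 24.6 CPM at 0 h, and the endothelial VWF, listed beside an almost uncounted PECAM1, was at 13.1 CPM and lower at both times (log2 −0.58 and −0.83). Of the 5 fibroblast markers, 2 were tested, with log2 changes of −0.14 and 0.46 at 12 h and −0.11 and 0.56 at 24 h. Only the rise at 24 h was called (edgeR). The part of these markers in the histone values was not tested.

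The stem-loop is shown because the way a transcript ends decides whether it can enter a library made from poly(A) mRNA, as these were. A 16-base histone stem-loop was found in the reference genome (hg38, GENCODE v44 models) for all 42 genes, in 7 different sequences. One sequence served 25 genes, of each class but H4, and it is the first below. The second and the fourth were carried by 5 and 4 H4 genes, and the third by 5 H2B genes. The last 3 were each found in a single gene. Capitals mark the stem-loop, with 5 bases on each side, written 5′ to 3′ on the strand of the gene.
H1-2 (chr6:26055739-26055764, GRCh38, minus strand): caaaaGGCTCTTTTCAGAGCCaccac
H4C8 (chr6:26285126-26285151, GRCh38, minus strand): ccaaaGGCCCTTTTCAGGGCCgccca
H2BC12 (chr6:27146361-27146386, GRCh38, minus strand): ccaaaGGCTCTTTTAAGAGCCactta
H4C9 (chr6:27139649-27139674, GRCh38, plus strand): aaaaaGGCCCTTTTTAGGGCCcctaa
H3C6 (chr6:26225591-26225616, GRCh38, plus strand): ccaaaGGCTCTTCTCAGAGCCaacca
H2AC11 (chr6:27133510-27133535, GRCh38, plus strand): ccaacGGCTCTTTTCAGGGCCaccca
H2AC20 (chr1:149887386-149887411, GRCh38, plus strand): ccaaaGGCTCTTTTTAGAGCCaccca

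The gene models that were counted fell into 2 kinds. In 23 genes the model stopped 3 to 51 bases past the stem-loop, and in 19 it ran on for 212 to 29196 bases. These distances run along the genome to the end of the deposited gene extent, introns included, and are not lengths of transcript. For some of the 19, such as H2AC11 and H4C5, the GENCODE v44 model itself ends at the stem-loop. A GENCODE v44 transcript was counted if it ended over 100 bases past the stem-loop with a poly(A) signal (AATAAA or ATTAAA) in its last 40 bases. Such a transcript was found in 13 of the 19 and in 0 of the 23. The 0 follows from the split itself, since models that stop at the stem-loop hold no transcript of that length. The signals of 5 extended genes with high counts are shown in capitals, since they mark ends that oligo(dT) selection can capture. H2BC21 continues without a splice for 1729 bases past its stem-loop, while the H2AC6, H2BC5 and H2BC4 transcripts below are spliced to a distant exon. The H3C6 transcript has 2 exons and ends 1862 bases past the stem-loop, and the place of its splice was not examined.
H2BC21 (chr1:149884465-149884490, GRCh38, minus strand): ttgttattAATAAAgttaccaattaa
H2AC6 (chr6:26139080-26139105, GRCh38, plus strand): catgaggtAATAAAaggtaatgcaaa
H2BC5 (chr6:26171317-26171342, GRCh38, plus strand): ttataattAATAAAatctgcggagaa
H2BC4 (chr6:26114878-26114903, GRCh38, minus strand): aagacaaaATTAAAataactcctagt
H3C6 (chr6:26227444-26227469, GRCh38, plus strand): agatgtaaAATAAAagattactgaac

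The promoters of the class share short elements that the selection of genes did not use. RefSeq (GRCh38.p14) listed a promoter of 300 bases for 40 of the 42 genes. On either strand, TATAAA occurred in 72.5% of them against 12.1% of all 27305 listed promoters, and CCAAT in 82.5% against 35.6%. The octamer ATTTGCAT, which the transcription factor POU2F1 recognises, was found in 42.5% against 1.82% of all promoters. All of these octamers lay in H2A (8 of 11) and H2B (9 of 12) genes. Windows of neighbouring H2A and H2B genes on opposite strands can overlap, so a single site can count for both genes. The octamers of H2AC6 and H2BC4, for example, are the same bases, as are those of H2AC11 and H2BC11. These shares therefore count promoters and not separate sites. AAACACA, known from H1 promoters, was present in all 4 H1 genes, in 12.5% of the 40 and in 5.78% of all promoters. CCAAT was found in 12.5% of the 8 H4 promoters and in each promoter of the other classes. A match describes the letters in this window only. The 130 bases before the start sites of the H2B, H2A and H1 genes with the most counts are shown, with these elements on either strand in capitals.
H2BC21 (chr1:149886683-149886812, GRCh38, minus strand): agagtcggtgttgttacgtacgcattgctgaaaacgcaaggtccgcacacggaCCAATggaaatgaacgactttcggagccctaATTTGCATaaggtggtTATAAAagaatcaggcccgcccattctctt
H2AC6 (chr6:26124042-26124171, GRCh38, plus strand): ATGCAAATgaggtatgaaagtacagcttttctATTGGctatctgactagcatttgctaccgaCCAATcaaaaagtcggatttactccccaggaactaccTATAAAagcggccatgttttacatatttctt
H1-2 (chr6:26056471-26056600, GRCh38, minus strand): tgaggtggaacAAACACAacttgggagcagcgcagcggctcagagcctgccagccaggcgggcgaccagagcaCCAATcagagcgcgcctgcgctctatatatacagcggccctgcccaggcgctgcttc

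A few genes held most of the counts. H2BC21 alone took 24.8% of the histone counts, the first 4 genes (H2BC21, H1-2, H2AC6 and H2BC12) 63.0% and the first 10 genes 86.7%. All 4 are among the 6 genes listed here as having known polyadenylated forms, with H2BC5 and H2BC4. At the other end, 22 genes averaged under 100 counts per library, and 31 of the 42 had at least 10 counts in all 9 libraries.

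The extended gene models carried 68.2% of the histone counts and the models that stop at the stem-loop 31.8%. The median gene of the first kind had a mean of 536 counts and the median gene of the second kind 21.1 counts. Among the 23 genes that stop at the stem-loop, H1-2 (5044 counts) and H2BC12 (2755 counts) stood far above the rest, which reached at most 268 counts. Of the 15 family genes that failed the count rule, 12 also stop at the stem-loop. Per kilobase of exon, over the 34 genes whose deposited extent lay within 100 bases of GENCODE v44, the order at 0 h was H1-2 at 128 CPM per kb, H2BC12 at 105, H2BC21 at 59.4 and H2AC6 at 34.3 CPM per kb. H2BC21 thus led in CPM but not per length, because its model is 2224 bases long and that of H1-2 is 731.

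**Figure D1:**
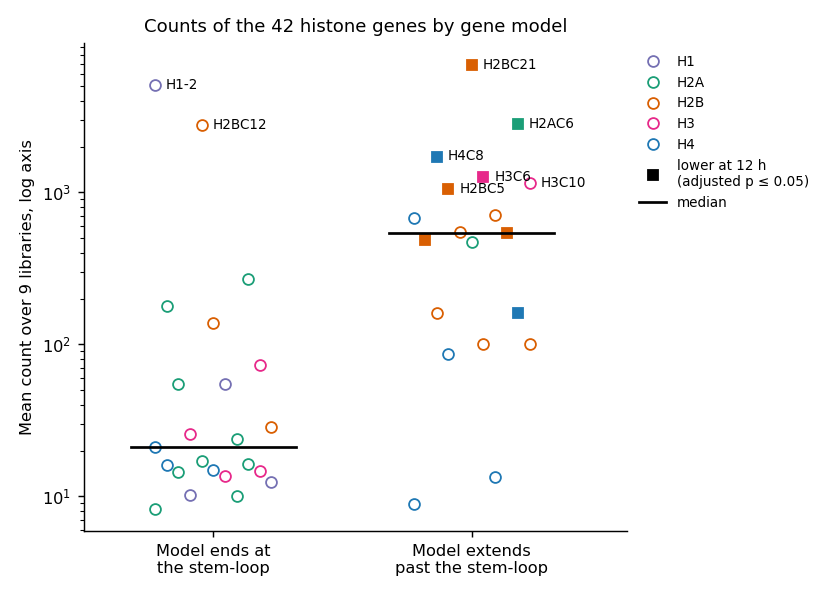
Mean count over the 9 libraries (log axis) of each of the 42 histone genes, split by whether the counted gene model ends at the stem-loop or extends past it, coloured by class, with filled squares for genes lower at 12 h by the edgeR test and a line at the median. The medians are 21.1 and 536 counts, and all 8 filled squares sit among the extended models.

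From 0 to 12 h, 8 of the 41 tested histone genes were lower and 0 were higher at an adjusted p of at most 0.05 (edgeR quasi-likelihood test, adjusted over all 19250 tested genes). Among all tested genes, 8.16% were lower and 10.6% higher. At an unadjusted p under 0.05, 11 histone genes were lower and 2 higher, against 13.9% and 15.8% of all tested genes, and DESeq2 called 6 lower and 0 higher. The 8 decreases were small, from −0.38 to −0.14 on the log2 scale, so 0 of them reached the 1.5-fold change that 1.38% of all genes reached in the same direction, beside 0.992% upwards. The median log2 change was −0.18 over the histone genes and −0.01 over all tested genes, and 29 of 41 values were negative. In bulk RNA, fewer cells with a message and less of it per cell cannot be told apart.

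H2AC6, an H2A gene with a spliced polyadenylated form, gave the lowest adjusted p. It measured 56.7, 58.8 and 56.1 CPM at 0 h and 47.4, 46.6 and 44.8 CPM at 12 h. The highest 12 h library lay well below the lowest 0 h library, and the log2 change was −0.31 ± 0.04 (SE, adjusted p = 3.5e-07, edgeR).

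The called H2B genes, which encode the partner of H2A in the nucleosome, were H2BC18, H2BC5, H2BC21 and H2BC4. H2BC18 fell from between 10.7 and 11.5 CPM to 8.43, 8.55 and 8.78 CPM (log2 −0.37 ± 0.08, adjusted p = 0.00052, edgeR). H2BC5 fell from 22.1, 22.5 and 20.7 CPM to 18.7, 18.6 and 17.0 CPM (log2 −0.27 ± 0.06, adjusted p = 0.0010, edgeR). H2BC21 fell from 131, 131 and 135 CPM to 118, 120 and 120 CPM (log2 −0.15 ± 0.03, adjusted p = 0.0013, edgeR). In each of these genes the 2 sets of 3 libraries did not overlap, and the most abundant of them, H2BC21, had the smallest log2 change. H2BC4 fell from a range of 9.42 to 10.4 CPM into one of 7.76 to 8.59 CPM (log2 −0.28 ± 0.08, adjusted p = 0.012, edgeR). Its call was lost without 0 h replicate 1 (adjusted p = 0.061) and without 12 h replicate 2 (adjusted p = 0.080).

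H4C8 and H4C5, which encode the same H4 protein as the other H4 genes, and the H3 gene H3C6 completed the list. H4C8 measured 34.7, 34.2 and 33.5 CPM at 0 h and 29.1, 31.2 and 32.4 CPM at 12 h (log2 −0.14 ± 0.05, adjusted p = 0.034, edgeR). H3C6 measured 25.7, 23.2 and 25.8 CPM at 0 h and 21.5, 22.4 and 22.3 CPM at 12 h (log2 −0.18 ± 0.06, adjusted p = 0.036, edgeR). H4C5 measured 3.42, 3.45 and 3.51 CPM at 0 h and 2.59, 2.76 and 2.62 CPM at 12 h (log2 −0.38 ± 0.13, adjusted p = 0.041, edgeR). The groups did not overlap in these genes, but each call was lost when single libraries were left out (5 of 6 for H4C8 and H3C6, 6 of 6 for H4C5), with adjusted p up to 0.26, 0.16 and 0.13. Without 0 h replicate 1 or 12 h replicate 2 only 4 genes were called lower, and without 12 h replicate 1 there were 5. Across the 41 tested genes, 12 did not overlap and were lower at 12 h and 2 did not overlap and were higher, against 15.3% and 17.5% of all tested genes.

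Other abundant genes did not pass the test at 12 h. H1-2, the most abundant H1 gene, measured 89.9, 95.9 and 95.4 CPM at 0 h and 95.3, 97.2 and 101 CPM at 12 h (log2 0.06 ± 0.04, adjusted p = 0.26, edgeR). H2BC12 measured 50.6, 54.7 and 51.4 CPM and then 49.6, 40.2 and 51.6 CPM, with a single low library at 12 h (log2 −0.15 ± 0.07, adjusted p = 0.19, edgeR). Without 12 h replicate 3 its change was −0.22 with an adjusted p of 0.016, and without 12 h replicate 2, the low library, it was −0.04 with an adjusted p of 0.63. H3C10 was the only gene above 20 CPM that did not overlap and was higher, with 0 h libraries of 19.7 to 21.1 CPM and 12 h libraries of 21.6 to 22.8 CPM (log2 0.11 ± 0.05, adjusted p = 0.15, edgeR). The 0 h and 12 h libraries of H4C9 (11.6 to 13.2 and 11.7 to 13.5 CPM) overlapped, and so did those of H2AC11 (8.34 to 8.94 and 8.12 to 10.5 CPM).

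All 8 genes called lower at 12 h have extended models, 8 of the 18 tested, against 0 of the 23 whose models stop at the stem-loop, where 1 gene was lower at an unadjusted p under 0.05 and DESeq2 called 0. The difference between the 2 kinds of model was not tested, and the kinds differ in counts. Among genes averaging at least 100 counts, the split was 8 of 15 against 0 of 5, and the median log2 changes were −0.18 and −0.09. Over all tested genes of each kind the medians at 12 h were −0.23 and −0.10.

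**Figure D2:**
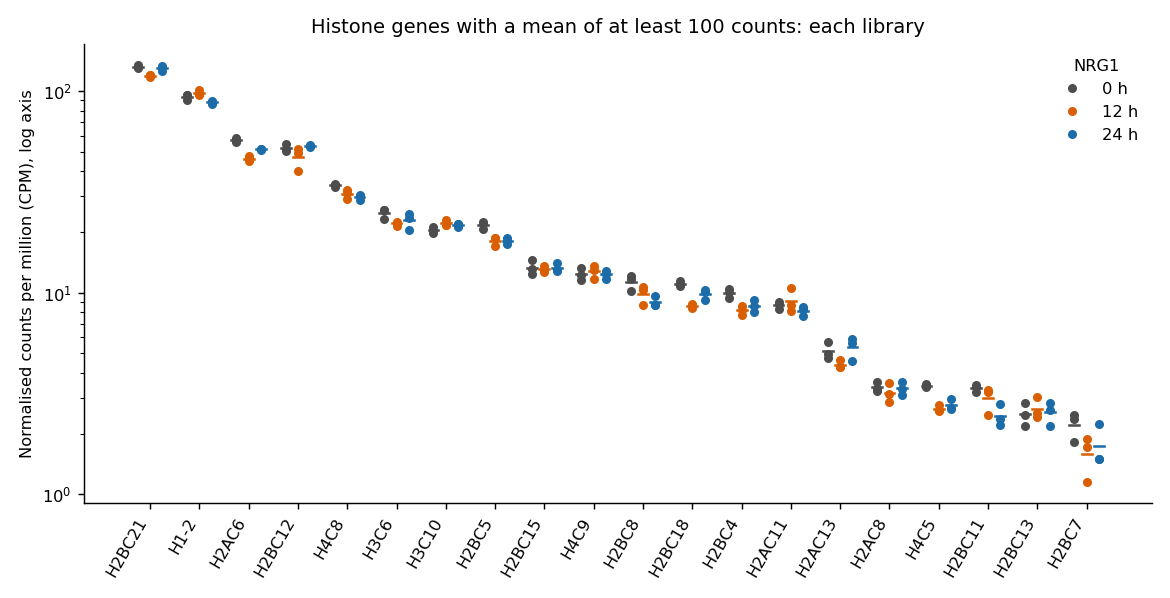
CPM (log axis) of each library for the 20 histone genes with a mean of at least 100 counts, at 0, 12 and 24 h of NRG1, with short lines at the mean of 3 libraries. For H2AC6 the 0 h libraries (56.1 to 58.8 CPM) sit above the 24 h libraries (51.2 to 51.5 CPM) and these above the 12 h libraries (44.8 to 47.4 CPM), while the mean of H1-2 is highest at 12 h.

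From 0 to 24 h, 7 of the 41 genes were lower and 1 was higher by the same test, against 9.48% and 11.6% of all tested genes. The median log2 change was −0.13, beside −0.01 over all genes, and 28 of 41 values were negative. At an unadjusted p under 0.05, 12 were lower and 1 higher, against 14.8% and 16.4% of all genes. Of the 8 calls, 2 lower (H2AC4 and H1-4) and 1 higher (H1-3) passed 1.5-fold, which 1.78% and 1.53% of all genes did in the same directions (3.31% in either), and all 3 had low counts. In 13 genes the libraries did not overlap and were lower at 24 h and in 2 they were higher, against 16.2% and 17.3% of all genes. Both time contrasts use the same 0 h libraries, so their values are not independent. Without 24 h replicate 3 only 4 genes were called lower.

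Among abundant genes, H2BC5 was at 18.7, 17.5 and 18.2 CPM at 24 h (log2 −0.27 ± 0.06, adjusted p = 0.00086, edgeR), the level it had at 12 h. H4C8 was at 30.4, 28.8 and 30.1 CPM (log2 −0.20 ± 0.05, adjusted p = 0.0026, edgeR). H2AC6 was at 51.2, 51.5 and 51.4 CPM, between its 0 h and 12 h libraries with no overlap to either (log2 −0.16 ± 0.04, adjusted p = 0.0037, edgeR). H2BC8, an H2B gene in the large chromosome 6 cluster, measured 12.1, 11.7 and 10.2 CPM at 0 h and 9.65, 8.64 and 8.66 CPM at 24 h (log2 −0.34 ± 0.09, adjusted p = 0.0034, edgeR). Its 12 h libraries, at 8.71 to 10.7 CPM, overlapped both groups.

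H2BC11 measured 3.23, 3.47 and 3.41 CPM at 0 h and 2.37, 2.80 and 2.21 CPM at 24 h, with no overlap (log2 −0.45 ± 0.15, adjusted p = 0.022, edgeR). The call was lost without 0 h replicate 2 (adjusted p = 0.063) or 3 (adjusted p = 0.064) and without 24 h replicate 1 (adjusted p = 0.070) or 3 (adjusted p = 0.10).

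The largest fold changes rested on few reads. H1-4, a linker histone gene, had 83, 83 and 66 counts at 0 h and 40, 44 and 41 at 24 h (log2 −0.67 ± 0.23, adjusted p = 0.037, edgeR). The core histone gene H2AC4 had 16, 10 and 10 counts at 0 h, 10, 15 and 7 at 12 h and 0, 4 and 2 at 24 h (log2 −2.31 ± 0.74 from 0 to 24 h, adjusted p = 0.021, edgeR). H1-3, another linker histone, had 5, 10 and 2 counts at 0 h, 8, 7 and 8 at 12 h and 16, 12 and 24 at 24 h (log2 1.81 ± 0.57, adjusted p = 0.021, edgeR). Groups at 0 and 24 h did not overlap in any of these genes. The H1-3 call was lost without 0 h replicate 1 (adjusted p = 0.068) or 3 (adjusted p = 0.12) and without 24 h replicate 1 (adjusted p = 0.056) or 3 (adjusted p = 0.13). The H2AC4 call was lost without 24 h replicate 1 (adjusted p = 0.12) or 3 (adjusted p = 0.067), and could not be tested without 0 h replicate 1, where the gene no longer passed the filter on low counts. The H1-4 call was lost without 0 h replicate 1 or 2 or any 24 h library, with adjusted p from 0.068 to 0.13.

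**Figure D3:**
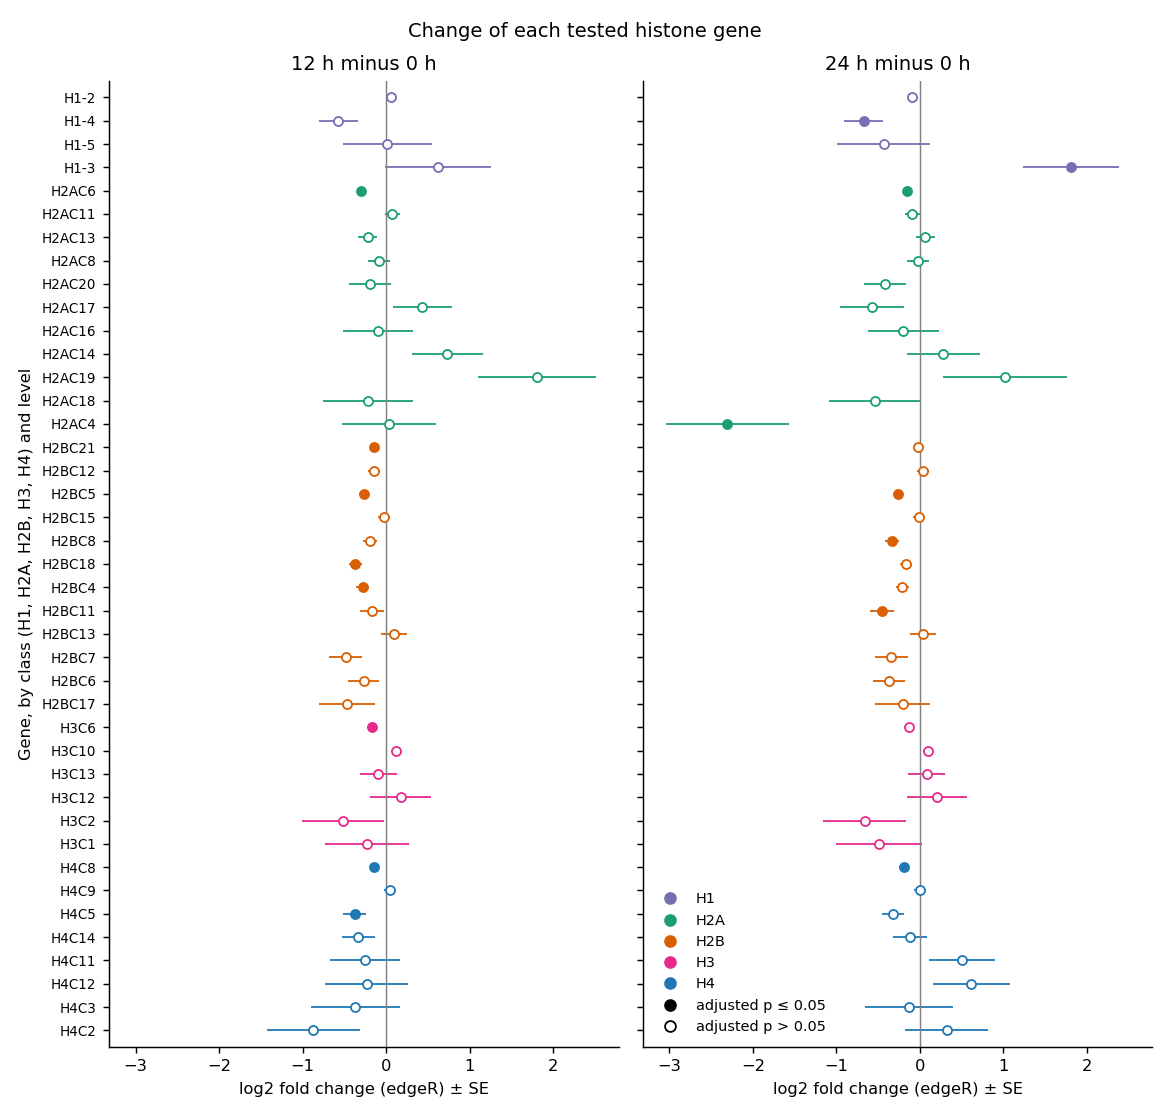
Log2 fold change (edgeR) with its standard error for the 41 tested histone genes at 12 h and at 24 h against 0 h, ordered by class and level; filled points passed an adjusted p of 0.05. At 12 h the 8 filled points lie between −0.38 and −0.14, and at 24 h the widest bars belong to genes with few counts such as H2AC4 and H1-3.

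From 12 to 24 h, 1 histone gene was lower and 2 were higher, against 3.05% and 3.03% of all tested genes (6.08% in either direction). None of the 41 passed with a 1.5-fold change by edgeR or DESeq2, as 0.203% of all genes did downwards and 0.249% upwards (0.452% in all), and at an unadjusted p under 0.05, with no fold limit, 3 genes were lower and 7 higher, against 9.42% and 9.43% of all genes. The median log2 change over the 41 genes was −0.00, as it was over all genes. H1-2 fell from 95.3, 97.2 and 101 CPM to 86.5, 89.1 and 88.5 CPM, also below each 0 h library (log2 −0.15 ± 0.04, adjusted p = 0.0073, edgeR). H2AC6 (log2 0.15 ± 0.04, adjusted p = 0.018, edgeR) and H2BC21 (log2 0.13 ± 0.03, adjusted p = 0.018, edgeR) rose. H2BC21 was at 134, 131 and 126 CPM at 24 h, above all 12 h libraries and overlapping the 0 h libraries (24 h against 0 h, log2 −0.02 ± 0.03, adjusted p = 0.71, edgeR). Libraries did not overlap and were higher at 24 h in 7 genes and lower in 3, against 12.1% and 12.3% of all genes. Without 12 h replicate 3, 0 of these 3 genes passed, with adjusted p of 0.069 for H1-2, 0.12 for H2AC6 and 0.0505 for H2BC21. Among the other libraries left out, H2BC21 was also lost without 12 h replicate 1 (adjusted p = 0.088) or 2 (adjusted p = 0.053) and 24 h replicate 1 (adjusted p = 0.11) or 2 (adjusted p = 0.078), and H2AC6 without 24 h replicate 2 (adjusted p = 0.062) or 3 (adjusted p = 0.053). A test of any difference among the 3 times passed in 11 of the 41 genes, beside 25.1% of all genes, and in 6 without 0 h replicate 1 or 7 without 12 h replicate 1.

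Summed over the 42 genes, the libraries held 536 ± 2.64 CPM at 0 h, 494 ± 6.86 CPM at 12 h and 506 ± 5.03 CPM at 24 h (SD, n = 3), 92.2% and 94.5% of the 0 h mean. These sums are given as a description with no test. By class, H2B summed to 263 ± 1.10, 233 ± 6.12 and 251 ± 6.05 CPM, and H2A to 77.1 ± 2.08, 66.1 ± 3.78 and 70.4 ± 0.760 CPM. In both classes the 3 libraries of 12 h lay below those of 0 h. The H1 sum, nearly all H1-2, was 95.4 ± 3.26, 99.2 ± 2.95 and 89.4 ± 1.19 CPM, the H3 sum 47.7 ± 1.02, 46.3 ± 0.819 and 46.9 ± 2.88 CPM, and the H4 sum 53.0 ± 1.15, 48.8 ± 2.69 and 48.2 ± 0.890 CPM. H3 libraries overlapped between all times, and H4 libraries at 12 and 24 h lay below those of 0 h.

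The 6 genes listed with known polyadenylated forms summed to 367 ± 5.91, 337 ± 6.61 and 350 ± 3.41 CPM, and the 36 others to 169 ± 3.28, 157 ± 1.23 and 156 ± 3.58 CPM. The 6 were listed from general knowledge, not from the poly(A) signals above. Of the 6, H1-2 and H2BC12 had no such signal in GENCODE v44, where their models stop at the stem-loop and none could be counted. Some of the 36, such as H3C6, H4C8 and H3C10, had one. The parts therefore do not separate genes with and without polyadenylated transcripts. At 12 h both parts stood at a like share of 0 h, 91.7% and 93.2%. At 24 h they stood at 95.3% and 92.7%. The 8 genes of chromosome 1, dominated by H2BC21, went from 148 ± 2.76 to 132 ± 1.15 and 144 ± 4.34 CPM. The 34 genes of chromosome 6 went from 388 ± 4.03 to 362 ± 6.06 and 362 ± 3.42 CPM. Chromosome 1 libraries at 24 h overlapped those of 0 h, and chromosome 6 libraries did not.

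**Figure D4:**
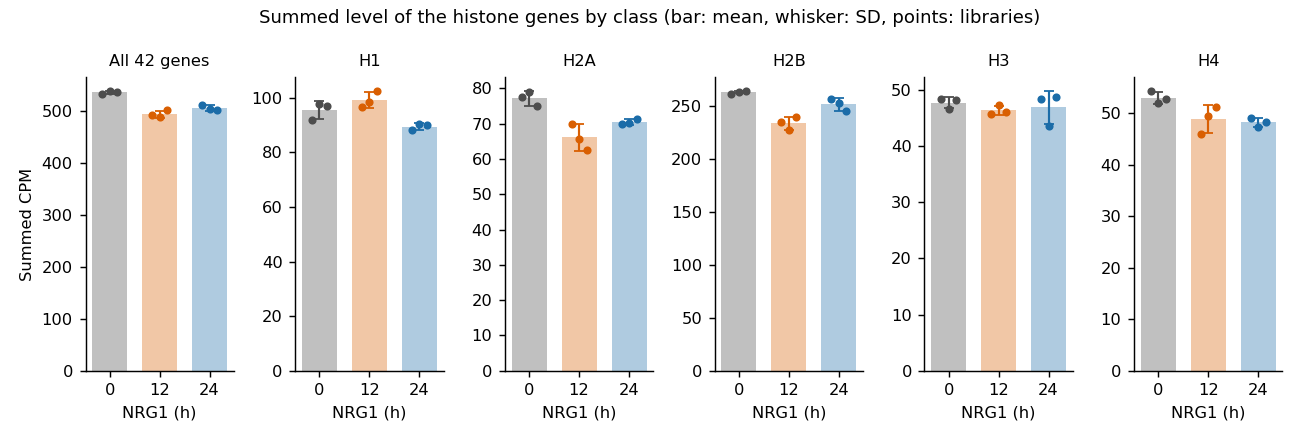
Summed CPM of all 42 histone genes and of each class at 0, 12 and 24 h of NRG1, with bars for the mean, whiskers for the SD and points for the 3 libraries. The total goes from 536 to 494 and 506 CPM, H2A and H2B are lowest at 12 h, and H1 is highest at 12 h.

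Many H2A and H2B genes are arranged head to head. The family holds 9 such pairs on opposite strands with start sites 223 to 251 bases apart, and in 6 both genes are among the 42. The pair H2BC4 and H2AC6 was at 9.94 and 57.2 CPM at 0 h and both were called lower at 12 h, with log2 changes of −0.28 and −0.31. Per kilobase of exon, H2BC21 was at 59.4 CPM per kb at 0 h and its partner H2AC20 at 2.34 CPM per kb. Their log2 changes at 12 h were −0.15 and −0.20, and only that of H2BC21 passed the test. Of the 6 pairs, 3 had log2 changes of the same sign at 12 h and 3 of opposite signs, namely H2AC17 and H2BC17 (0.43 and −0.47), H2BC11 and H2AC11 (−0.17 and 0.07) and H2BC13 and H2AC13 (0.09 and −0.22), and neither gene of these 3 pairs passed the test at 12 h. H2AC20 has a model that stops at the stem-loop and H2BC21 an extended one.

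The machinery that makes and trims histone mRNA moved little and mostly upwards. Of 28 genes, 8 were higher and 1 lower at 12 h, and 6 were higher and 1 lower at 24 h, with median log2 changes of 0.07 and 0.06. Among all tested genes, 10.6% were higher and 8.16% lower at 12 h, and 11.6% and 9.48% at 24 h. From 12 to 24 h the shares of all tested genes were 3.03% higher and 3.05% lower. SLBP was at 47.1 CPM at 0 h, 53.7 at 12 h and 52.8 at 24 h (log2 0.19 and 0.16, adjusted p = 0.0010 and 0.0037, edgeR). The Sm ring components SNRPG (log2 0.20, adjusted p = 0.0016, edgeR) and SNRPF (log2 0.16, adjusted p = 0.0028, edgeR) rose at 12 h. SNRPB of the same ring also rose at 12 h (log2 0.12, adjusted p = 0.017, edgeR). SNRPE of the ring passed at neither time (log2 0.03 and −0.03), and SNRPD3 was the gene lower at 24 h (log2 −0.14, adjusted p = 0.0084, edgeR). At 24 h the U7-specific Sm-like protein LSM10 (log2 0.19, adjusted p = 0.0018, edgeR) and the exonuclease ERI1, which trims histone mRNA ends (log2 0.22, adjusted p = 0.0054, edgeR), were higher. POU2F1, the octamer-binding factor, was the gene lower at 12 h (log2 −0.20, adjusted p = 0.0031, edgeR). NPAT, the coactivator of histone transcription that cyclin E and CDK2 phosphorylate, did not pass at 12 h (log2 0.15, adjusted p = 0.083, edgeR), nor did CASP8AP2 (log2 0.08, adjusted p = 0.62, edgeR). From 12 to 24 h, 1 gene of the list was higher (POU2F1, log2 0.16, adjusted p = 0.039, edgeR) and 1 lower (SNRPG, log2 −0.17, adjusted p = 0.020, edgeR). Without 24 h replicate 3, 3 genes were higher at 24 h, and neither call from 12 to 24 h was kept without 12 h replicate 2 or 24 h replicate 1 or 3, nor POU2F1 without 12 h replicate 1. Without 0 h replicate 1, 2 genes were lower at 24 h.

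The S phase and DNA replication list had more genes higher than lower. At 12 h 17 of its 42 genes were higher and 1 lower, and at 24 h 18 were higher and 2 lower, with a median log2 change of 0.15 at both times. The shares of all tested genes were 10.6% higher and 8.16% lower at 12 h, and 11.6% and 9.48% at 24 h. The helicase subunits MCM6 (log2 0.46 at 12 h and 0.40 at 24 h) and MCM5 (0.30 and 0.30) and the ribonucleotide reductase subunit RRM2 (0.22 and 0.26) had the lowest adjusted p at both times. Thymidine kinase TK1 was lower at both times (log2 −0.19 and −0.27), and RPA3, of the single-strand binding complex, at 24 h (log2 −0.26). The G2 and mitosis list had 4 of 27 genes higher and 0 lower at 12 h, with 0 lower at an unadjusted p under 0.05 and by DESeq2. At 24 h 0 were higher and 19 lower, the median was −0.20, and 21 were lower at 24 h than at 12 h. Over all tested genes 3.05% were lower at 24 h than at 12 h. At an unadjusted p under 0.05, 13.9% of all tested genes were lower at 12 h. The 4 higher at 12 h became 1 without 0 h replicate 1 or 12 h replicate 2 and 2 without 12 h replicate 1, and the 19 lower at 24 h became 12 without 0 h replicate 3 or 24 h replicate 2. HMMR, a spindle protein, fell by 0.38 on the log2 scale from 0 to 24 h and CCNB1 (cyclin B1) by 0.23. The share of these movements in the histone values was not tested.

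**Figure D5:**
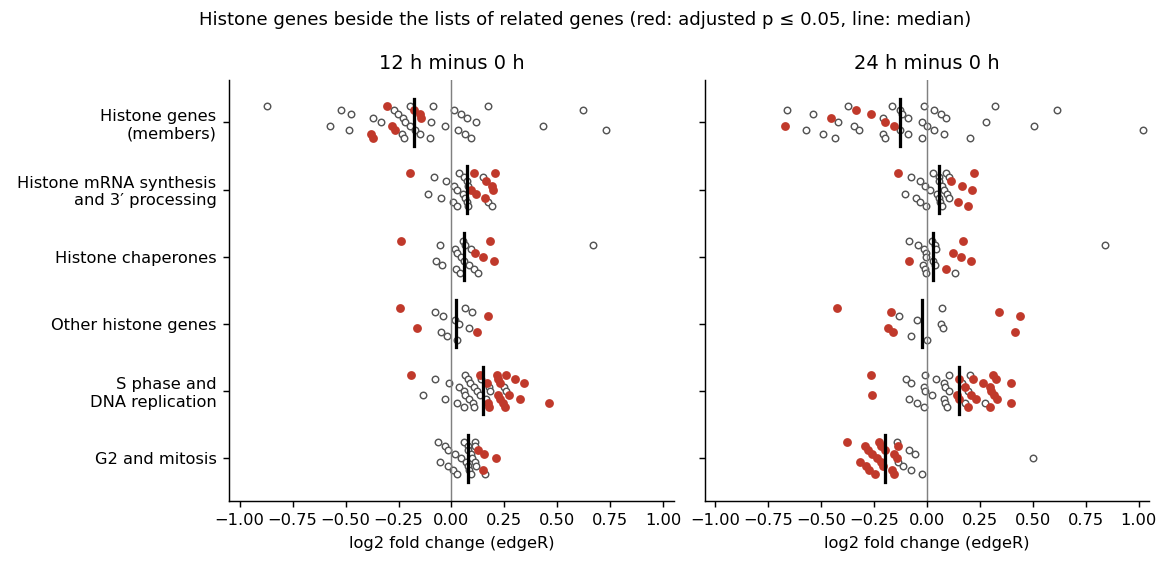
Log2 fold changes (edgeR) at 12 h and 24 h against 0 h for the tested histone genes and for the lists of related genes, 1 point per gene, red where the adjusted p was at most 0.05, with a line at the median. Histone medians are −0.18 and −0.13 and S phase medians 0.15 and 0.15, and 3 points of low-count histone genes lie beyond the axis limits.

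The other histone genes are mostly replication-independent variants with polyadenylated mRNAs. The list also holds H2AW, H2BU1 and H4-16, which belong to small clusters elsewhere and have stem-loop messages, and H2AX, which makes both forms. Of 14 tested genes, 2 were higher and 2 lower at 12 h, and 3 higher and 4 lower at 24 h. Beside them, 10.6% of all tested genes were higher and 8.16% lower at 12 h, and 11.6% and 9.48% at 24 h. The linker histone H1-10 went from 140 to 125 and 124 CPM (log2 −0.16 and −0.17). H2AJ rose from 118 to 132 and 149 CPM (log2 0.17 and 0.34) and H2AW from 45.5 to 49.5 and 60.8 CPM (log2 0.12 and 0.42). H2AZ1, a variant found at promoters, was at 279, 271 and 246 CPM, lower at 24 h only (log2 −0.18). H3-3A, H3-3B and H2AX did not pass at either time, and the H4 gene H4-16 was higher at 24 h (log2 0.44, adjusted p = 0.0025, edgeR). Only 1 gene was higher at 12 h without 0 h replicate 3 or 12 h replicate 1.

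Histone chaperones, which hand new histones to DNA, had 4 of 21 genes higher and 1 lower at 12 h, and 5 higher and 1 lower at 24 h. Over all tested genes, 10.6% were higher and 8.16% lower at 12 h, and 11.6% and 9.48% at 24 h. The FACT subunit SUPT16H (log2 0.18, adjusted p = 6.3e-05, edgeR), NASP (log2 0.15, adjusted p = 0.0012, edgeR) and ASF1B (log2 0.20, adjusted p = 0.019, edgeR) rose at 12 h, and ATRX fell (log2 −0.24, adjusted p = 5.8e-05, edgeR). CHAF1A, of the assembly factor CAF-1, passed at 24 h only (log2 0.16, adjusted p = 0.017, edgeR), and CHAF1B at neither time. The 1 chaperone gene lower at 24 h was NAP1L1 (log2 −0.08), and from 12 to 24 h ATRX rose (log2 0.15) and NASP fell (log2 −0.12). These small changes depended on single libraries: without 0 h replicate 1, 2 genes were higher at 12 h and 1 at 24 h, without 24 h replicate 1 there was 1 at 24 h, without 24 h replicate 2 there were 2, and without 0 h replicate 2 or 3 there were 3. NAP1L1 was lost without 0 h replicate 2 or 3 or 24 h replicate 1 or 2, and ATRX and NASP from 12 to 24 h without 12 h replicate 1 or 2 or 24 h replicate 2 or 3.

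Other RNAs that lack a poly(A) tail were counted as a gauge of how much untailed RNA the libraries held. Of 26 listed, 18 were in the table and 4 were tested. They summed to 45.8 ± 5.17, 36.7 ± 9.73 and 41.9 ± 3.90 CPM (SD, n = 3), nearly all RN7SL1, the RNA of the signal recognition particle. RN7SL1 overlapped between times (log2 −0.35 at 12 h, adjusted p = 0.33, edgeR). TERC, the telomerase RNA, was the gene called lower, at 0.649, 0.230 and 0.138 CPM (log2 −1.48 and −2.22, adjusted p = 0.0076 and 0.00022, edgeR). SNORA73B was higher at 24 h (log2 0.64, adjusted p = 0.020, edgeR), a call lost without 0 h replicate 1 or 2 or 24 h replicate 3.

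Some of the 42 genes cannot be read singly. Near-identical copies, with at least 95% identity over 150 bases or more, exist for 9 of them, in the H2A (4), H3 (1) and H4 (4) classes, and reads from such copies could be split or dropped. None of these 9 passed the test in any comparison by edgeR or DESeq2. H2AC19 had 51, 12 and 6 counts at 12 h and was called higher there when all genes with at least 1 count were tested, and without 12 h replicate 2 or 3 or 24 h replicate 3. H4C15 did not pass the filter on low counts and was not tested. Another gene overlaps 7 of the 42, and in 4 (H4C15, H2BC6, H3C12 and H2AC17) the overlapping gene had over 10% of their counts. H2BC18 overlaps a noncoding gene with 9.48% of its counts.

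The genes whose level followed the summed histone CPM most closely over the 9 libraries, by Pearson's r of log2 values, were GPR63 (r = 0.98), VWA2 (0.98), TIMP2 (0.97), LRRC31 (0.97) and RP11-54O7.1 (0.97). All 5 fell at 12 h, with log2 changes from −0.78 for VWA2 to −0.25 for RP11-54O7.1. A fall at 12 h comes with the way they were picked, since the summed histone CPM was itself lower then. The 9 points come from the same 3 groups and libraries for each gene, so these correlations only describe a shared pattern: means highest at 0 h, lowest at 12 h and intermediate at 24 h.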

How the data were processed

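RNA-seq was measured in 9 LNCaP libraries, 3 each at 0, 12 and 24 h of NRG1. Illumina TruSeq mRNA libraries were sequenced as paired ends. According to the study's methods and the submitters' processing notes, the authors trimmed reads with cutadapt 4.5, checked them with FastQC 0.11.9, aligned them to GRCh38.p13 with STAR 2.7.11a and counted them with featureCounts 2.0.2, and they used DESeq2 1.30.1 for their own comparisons. The deposited table holds raw read counts per gene, with no normalization. How multi-mapping reads and strand were treated is not given in the sources used here, so reads of near-identical histone genes and of overlapping genes on opposite strands may be mixed. The methods state that a 0 h LNCaP replicate was left out of their analysis without naming its treatment. Figure legends give 3 samples a group for NRG1, and all 3 libraries at 0 h were used here. A further 14 empty columns of the table were not used.

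Genes were filtered with filterByExpr and fitted over all 9 libraries with edgeR 4.0.16 in R 4.3.3 (TMM, robust quasi-likelihood F tests, group means), and p-values were adjusted by Benjamini-Hochberg over all 19250 tested genes. A gene was called at an adjusted p of at most 0.05, and separately with a 1.5-fold change, the thresholds of the study. CPM were computed here from TMM-scaled totals. Log2 fold changes are those of the edgeR fit at its default prior count. A prior count of 2 was used only for the log2 CPM of single genes in the correlations. The 9 replicate pairs differed by 3.15 to 9.45 times the sampling noise (chi-square per degree of freedom), so no library was counted as a duplicate. Same-numbered libraries of different times did not deviate together (correlations of −0.04 to 0.03, 0 of 9 over 0.1), so numbers were not treated as pairs. The tests were tried on simulated counts first.

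Stem-loops, poly(A) signals and exon lengths came from the hg38 sequence with GENCODE v44 models, in which 99.8% of the table's genes were found and 91.7% with the same extent. Of the 42 genes, 24 had the same extent and 2 were matched by symbol. Copies were found with BLAST 2.17.0. Promoters are those of RefSeq.

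Named genes were the 10 lowest adjusted p among called genes of each comparison, the 2 most abundant genes of each class, the genes with known polyadenylated forms, preset genes of the lists and the 3 lowest adjusted p of each list. H2AC19, H4C15 and other genes of low count, with copies, in head-to-head pairs or in lists that are named outside this rule were chosen after their values were seen. The members and lists were chosen with earlier results of these data known. Alternatives were DESeq2 1.42.0, other scalings and filters, fewer libraries, a replicate block, a higher fold limit, glmTreat and thinned libraries. Some genes of the lists are counted in the totals but not reported here.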

Additional observations from a re-analysis of the deposited data

Results flagged for a closer look

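Each of 3 histone genes gave a different value at the 2 treated times in a direct test of 24 h against 12 h (edgeR quasi-likelihood test, 3 libraries each, adjusted over all tested genes). H2AC6 was 0.151 higher on the log2 scale at 24 h than at 12 h (adjusted p = 0.018). H2BC21 was 0.127 higher (adjusted p = 0.018). H1-2 fell by 0.152 (adjusted p = 0.0073). In each of these genes the 3 libraries of 24 h did not overlap the 3 of 12 h. The tests are those described in the report, each lost without 12 h replicate 3, and their cause was not tested.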

How the results depend on the processing

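Of 54 values of 18 named histone genes, 19 passed the adjusted p of 0.05, and 8 of these passed under every alternative: H2AC6, H2BC18, H2BC21 and H2BC5 at 12 h and H2AC6, H2BC5, H2BC8 and H4C8 at 24 h. No value changed sign while it was called, and no scaling moved the median of all genes by over 0.1 (log2). Leaving out each of the 6 libraries of the 2 times compared gave 4 to 7 genes lower at 12 h (main value 8) and 0 to 1 higher, 4 to 6 lower at 24 h (7) and 0 to 1 higher (1), and 0 to 1 lower (1) and 0 to 1 higher (2) from 12 to 24 h, and leaving out each of the 9 libraries gave 6 to 12 genes with any difference (11). With the 1.5-fold limit the ranges were 0 to 1 lower and 0 to 1 higher at 12 h, 0 to 2 lower and 0 to 1 higher at 24 h and 0 to 0 from 12 to 24 h. The summed CPM ranged from 91.7% to 93.0% of 0 h at 12 h and from 94.1% to 94.8% at 24 h, and was 92.7% at 24 h without the 6 genes listed with known polyadenylated forms. Testing all genes with at least 1 count gave 1 gene higher at 12 h (H2AC19), also past 1.5-fold. The 2 genes lower by 1.5-fold at 24 h became 1 with that filter, with 10 counts required in every library, with only the 6 libraries compared, with thinned libraries and with a limit of 2-fold, and 0 with glmTreat. The 1 gene higher at 24 h (H1-3) became 0 with 10 counts in every library and with thinned libraries, and the count past 1.5-fold also with glmTreat. Filters that remove low counts leave fewer genes to test. The cause of the other changes was not tested.

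With the replicate number as a block, 7 histone genes were lower at 12 h, H4C5 being lost at an adjusted p of 0.0502, and 8 were called at 24 h and 3 from 12 to 24 h. Thinning of all libraries to the smallest total and median-of-ratios factors for the summed CPM were chosen after seeing the data, as were all alternatives for the lists.

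In the lists, leaving out each of the 6 libraries of the times compared gave the following ranges of calls. The 3′ processing list had 6 to 7 higher at 12 h, 3 to 5 higher and 1 to 2 lower at 24 h, and 0 to 1 each way from 12 to 24 h, where DESeq2, no scaling and thinning gave 0 higher; 10 counts in every library gave 2 lower at 24 h. The other histones had 1 to 3 higher at 12 h (1 with no scaling, all genes of at least 1 count or thinning), 4 to 5 lower at 24 h and, from 12 to 24 h, 1 to 2 higher and 1 to 4 lower. Chaperones had 2 to 4 higher at 12 h (2 lower with DESeq2, no scaling or 10 counts in every library), 1 to 4 higher (3 when thinned) and 0 to 1 lower (0 with 6 libraries) at 24 h, and 0 to 1 each way from 12 to 24 h (0 higher with no scaling). S phase genes had 14 to 19 higher at 12 h, 16 to 20 higher at 24 h and 0 to 4 lower from 12 to 24 h. G2 and mitosis genes had 1 to 6 higher at 12 h, and 12 to 18 lower at 24 h and 16 to 20 lower from 12 to 24 h. Untailed RNAs had 0 to 1 higher at 24 h, and 0 lower at 12 and 24 h with 10 counts in every library, where TERC was not tested.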
